A study of Mus musculus with 7 samples.

Results

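The clone that lacks the distal Sox2 super-enhancer (SE) on both alleles (CAST-/129-) was compared with the wild type clone (CAST+/129+) by RNA-seq, over all 31498 genes that could be counted, with 1 library for each clone. These are 2 of the 7 libraries of the series, of which 4 are RNA-seq. All clones derive from F123, mouse embryonic stem cells (ESCs) that carry 1 CAST and 1 129 genome, and CRISPR with a pair of guide RNAs was used to excise the SE. Clones that lost it on the 129 allele (CAST+/129-) or on the CAST allele (CAST-/129+) were sequenced as well, and their levels are set beside those of the biallelic clone, with the same wild type library as reference. Each genotype is a single clone in a single library, so that clone, library and genotype cannot be told apart and no difference has a replicate check. After editing, clones recovered on puromycin-resistant mouse embryonic fibroblasts (MEFs) as feeders, and the feeders were then left out over passages on gelatin that preceded RNA extraction.

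Sox2 is a transcription factor that binds DNA together with Oct4 (the product of Pou5f1) and, with Nanog, holds ESCs in the pluripotent state. Mouse ESCs grown with LIF resemble the naive inner cell mass, whose factors include Klf4, Tbx3, Esrrb and Tfcp2l1. Cells that leave this state pass through a primed, epiblast-like state, and loss of pluripotency factors can also open trophectoderm or primitive endoderm programs, the lineages of the placenta and the yolk sac.

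The wild type library was the deeper one, with 24848422 distinct alignments on genes against 5831199 in CAST-/129-, 12458881 in CAST+/129- and 6058939 in CAST-/129+. A distinct alignment is 1 aligned position, with all its copies counted once, and 2.58 reads stood behind each in wild type against 1.84 in CAST-/129-. Levels are FPKM, alignments scaled to the length of the exons and to all alignments on genes. A pseudo-value of 4 was added to each FPKM before the log2 ratio was taken, and a gene was called up or down where this ratio reached 3-fold, which understates the change of genes with low levels. Intervals are exact 95% intervals that take the alignments as independent counts and cover counting error only.

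Sox2 held 10667 alignments in the wild type library and 2510 and 1088 in CAST+/129- and CAST-/129+, but 106 in the biallelic clone. Its level was 175 FPKM in wild type, 82.0 and 73.1 FPKM in the monoallelic clones and 7.40 FPKM in CAST-/129-. The biallelic clone thus kept 4.23% of the wild type level (3.46% to 5.13%), a log2 ratio of -3.97, which was the lowest of any gene on the scale of FPKM plus 4. The stretch of H3K27ac, a mark of active enhancers, that lies 98.6 kb past Sox2 in wild type F123 cells (chr3:34650001-34678000, mm9) also gave RNA. On the plus strand, that of Sox2, the wild type library held 545 alignments there, CAST+/129- held 258, CAST-/129+ held 25 and CAST-/129- held 7. As CPM of the alignments on genes this was 21.9 (20.1 to 23.9) in wild type, 20.7 (18.3 to 23.4) and 4.13 (2.67 to 6.09) in the monoallelic clones in that order, and 1.20 (0.483 to 2.47) in CAST-/129-. The minus strand gave 3.02 CPM (2.37 to 3.78) in wild type, 3.61 and 6.77 (4.86 to 9.18) in the monoallelic clones and 2.40 in CAST-/129-. The study places the excised SE at about the distance of this stretch from Sox2, and the stretch is longer than that SE. The ends of the deletion were not located within the stretch here. Excised DNA gives no RNA, and the part of lost template in the lower counts was not tested. Which alignments came from DNA left in place was not tested either. The paper also reports that the deletion overlaps the start of Peril, a noncoding RNA, which deleted alleles no longer gave.

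Of all genes counted, 258 were up at least 3-fold in CAST-/129-, which is 0.819% of those tested, and 161 were down, which is 0.511%. Among the 9741 genes with a mean of at least 5 FPKM over both libraries, 240 were up (2.46%) and 159 were down (1.63%), and the median log2 ratio was -0.09. This median was 0.01 with read counts and -0.01 with the wild type library thinned to the depth of the other. The genes that were up were mostly silent or low in wild type, with a median of 1.85 FPKM there against 27.6 FPKM in CAST-/129-. Genes that were down started from a median of 29.4 FPKM and were left with 3.85 FPKM. On the scale of FPKM plus 4, 35 genes that were up and 4 that were down passed 10-fold. Protein-coding genes made up 249 of those up and 149 of those down.

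**Figure D1:**
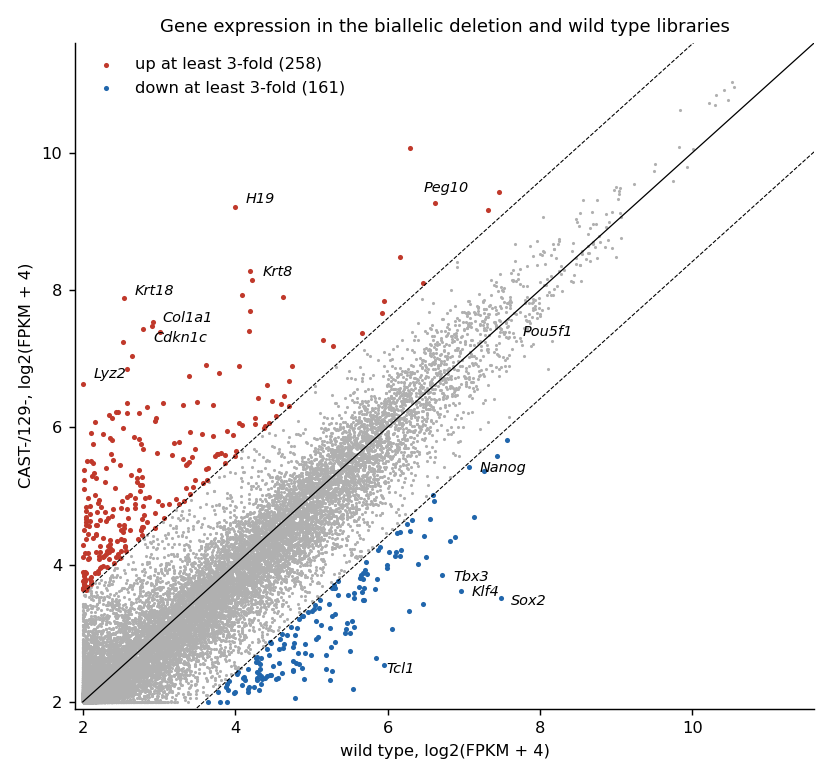
Levels of each gene in the wild type library (x axis) and in the CAST-/129- library (y axis), both as log2 of FPKM plus 4, with 1 point a gene. The dashed lines mark 3-fold, and the 258 genes above them rise mostly from the low end of the wild type scale, while the 161 genes below them include Sox2 at 175 and 7.40 FPKM.

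Of 20 factors of the naive state counted, 11 were down, 1 was up, and the median log2 ratio was -1.70, with 19 of the 20 below 0. Klf4, a Krüppel-like factor that is switched on by LIF signalling, had 120, 19.3, 13.9 and 8.29 FPKM in wild type, CAST+/129-, CAST-/129+ and CAST-/129-. The T-box factor Tbx3 had 101, 18.6, 10.4 and 10.4 FPKM in the same order, so that the CAST-/129+ clone lay as low as the biallelic one. Tcl1, a cofactor of the Akt kinase, had 53.5, 5.60, 2.49 and 2.22 FPKM. For these 3 genes the wild type library stood far above the other 3 libraries, and the biallelic clone was no higher than either monoallelic clone.

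Esrrb, an orphan nuclear receptor, had 89.9, 51.3, 31.4 and 21.3 FPKM. Tcfcp2l1 (the older symbol of Tfcp2l1) had 86.7, 20.6, 13.8 and 13.3 FPKM. Nr5a2, a nuclear receptor that can bind the Pou5f1 promoter, had 19.8, 10.4, 7.49 and 1.92 FPKM. Nr0b1, Prdm14, Zfp42 (Rex1) and the cell adhesion gene Jam2 were down as well, with log2 ratios between -2.19 and -1.75. The members that missed the threshold were also lower in CAST-/129-, among them Klf5 with 188 FPKM in wild type against 66.8 in CAST-/129-, and Klf2 with 52.4 and 26.6 FPKM. The exception was Dppa3 (Stella), a maternal factor that guards DNA methylation in the early embryo and varies between single ESCs. It had 6.86 FPKM in wild type, 89.4 and 108 in the monoallelic clones and 31.1 in CAST-/129-, so that all 3 deletion clones lay above wild type.

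Nanog, which fell from 130 FPKM in wild type to 38.9 in CAST-/129-, stood at 115 FPKM in CAST+/129- and 76.5 in CAST-/129+. Its promoter is known for a joined Oct4 and Sox2 site, and the 200 bases before the annotated start (chr6:122657307-122657506, plus strand, mm9) are shown because that site lies in them. The capitals mark a match to the Sox core CATTGT on the opposite strand, at bases -67 to -62 from the start.

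Nanog: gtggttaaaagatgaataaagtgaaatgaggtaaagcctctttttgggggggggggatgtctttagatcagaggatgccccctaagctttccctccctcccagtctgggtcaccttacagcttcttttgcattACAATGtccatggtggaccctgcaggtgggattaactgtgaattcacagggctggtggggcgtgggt

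CATTGT on either strand occurred in 13 of the 161 windows of genes that were down, from 250 bases before to 50 after the start. This is 8.07%, against 5.81% of the 258 windows of genes that were up, 7.77% of the windows of expressed genes that were neither and 12.4% of the windows of all genes counted. A match to these letters is a description of the sequence and no measure of binding.

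Factors shared by naive and primed cells moved less than those of the naive state, though mostly downward. Of 18 genes, 1 was down and 0 were up, with 15 below 0, 3 above 0 and a median of -0.31. Pou5f1 had 188 FPKM in wild type, 132 and 207 in the monoallelic clones and 163 in CAST-/129-, a log2 ratio of -0.20. Dppa5a had 461 and 480 FPKM in wild type and CAST-/129-, and Sall4, a zinc finger partner of Oct4, had 73.5 and 58.5 FPKM. Lin28a, which blocks let-7 maturation and is higher in primed than in naive cells, had 39.3 and 81.6 FPKM and missed the threshold. The gene that was down was Sall1, near the threshold, with 75.8 FPKM in wild type against 21.1 in CAST-/129-. Among 15 surface and enzyme markers of ESCs, 3 were down and 1 was up. Kit, Pecam1 and Lifr were the former, with 29.3, 43.2 and 21.5 FPKM in wild type and 3.56, 7.39 and 3.83 FPKM in CAST-/129-. Epcam, an epithelial adhesion molecule, was the latter, with 18.3 and 79.1 FPKM.

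The LIF and Stat3 pathway, which sustains naive ESCs, had 4 of 15 genes down and 0 up. They were the receptor Lifr, the feedback inhibitor Socs3 with 47.0 and 9.85 FPKM, and the targets Klf4 and Tcfcp2l1. The kinase Jak1 had 20.7 and 20.5 FPKM, and Stat3 itself had 16.2 and 11.3 FPKM. In the Klf family of 21 genes counted, Klf4 and Klf15 were down and 0 were up. Among 19 Sox genes Sox2 alone passed the threshold, while 1 Sox gene was up as well with the wild type library thinned to the depth of the other. Sox3 and Sox11, related genes whose products can act on similar sites, had 0.937 and 3.38 FPKM in wild type and 6.66 and 16 FPKM in CAST-/129-.

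Of 19 genes of the primed epiblast 7 were up and 0 were down, with 3 below 0 and a median of 1.11. Fgf5, the classical marker of that stage, had 0.129, 4.01, 26.9 and 24.5 FPKM in the libraries as ordered above. Cldn6, a tight junction claudin, had 1.76, 27.9, 81.8 and 59.7 FPKM. Wnt8a had 1.29, 3.13, 6.33 and 24.0 FPKM. Fgf5 and Cldn6 were thus no higher in the biallelic clone than in CAST-/129+, while Wnt8a was highest in the biallelic clone. Pim2, Nes and Car4 were up too, as was Krt18, which other lists hold as well. Otx2, with 3.20 and 15.2 FPKM, and the de novo methyltransferase Dnmt3b, with 47.4 and 106 FPKM, were higher without passing the threshold.

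Regulators of the primitive streak, where the epiblast forms mesoderm and endoderm, were up in 7 of 22 cases, with 0 down and a median of 0.44. T (Brachyury) had 0.418, 3.16, 10.3 and 36.3 FPKM in wild type, CAST+/129-, CAST-/129+ and CAST-/129-. Cer1, a secreted Nodal and BMP antagonist, had 0.0463, 0.138, 14.3 and 37.4 FPKM. Fgf8 had 0.119, 1.01, 19.6 and 21.5 FPKM. In these genes CAST+/129- was the lowest of the deletion clones and CAST-/129- the highest. Mixl1, Lhx1, Wnt3 and Hand1 were the others that were up. Mesp1, Tbx6 and Msgn1, which mark mesoderm, stayed under 1 FPKM in both libraries. Of 19 neuroectoderm genes only Nes was up and 0 were down, and Pax6, Neurog2 and Olig2 were at or below 0.0791 FPKM in both.

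Nodal signals through Cripto (Tdgf1) and is held back by the Lefty proteins, which it induces. Lefty1 was up, with 6.50, 23.9, 43.9 and 103 FPKM in the 4 libraries in the order above. Inhba, an activin subunit, was up with 0.203 and 14 FPKM, and the proprotein convertase Pcsk6 was down with 33.6 and 6.76 FPKM. Nodal had 19.7 and 45.3 FPKM and Lefty2 had 29.1 and 87.7 FPKM, short of the threshold, while Tdgf1 had 209 and 154 FPKM. In all, 2 of 19 Nodal pathway genes were up and 1 was down. Over all genes with a mean of at least 5 FPKM, 2.46% were up and 1.63% were down. In this and other lists, 1 or 2 members past the threshold therefore say little about the list as a whole. In the BMP pathway 2 of 20 genes were up, the antagonist Grem1 with 0.398 and 40.8 FPKM and the Id gene Id2, and 1 was down, Bmp4 with 40.6 and 7.79 FPKM. Fibroblast markers, given below, were also highest in CAST-/129-, and the part of fibroblast RNA in the values of Inhba and Grem1 was not tested. In the WNT pathway 2 of 26 were up, Wnt3 and the receptor Fzd2, or 1 with read counts, and the inhibitor Sfrp1 was down with 59.4 and 11.5 FPKM. In the FGF, Kit and ERK pathway 2 of 25 were up, Fgf5 and Fgf8, and 2 were down, Kit and the ERK-responsive factor Etv4. Among 20 retinoic acid genes Crabp1, Crabp2 and the degrading enzyme Cyp26a1 were up, and Stra8 was down with 62.4 and 4.38 FPKM.

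Trophectoderm genes were up in 9 of 24 cases and down in 0, with a median of 0.96. The simple epithelial keratins Krt8 and Krt18, which pair into filaments, had 14.6 and 1.81 FPKM in wild type and 279 and 231 FPKM in CAST-/129-. Krt18 was thus 128-fold higher (99.4 to 167), with the largest log2 ratio of any gene on the scale of FPKM plus 4, 5.34. In the monoallelic clones Krt8 had 139 and 264 FPKM and Krt18 had 133 and 229 FPKM. Krt19, Krt7, Hand1, Plac1, Ascl2, Id2 and the placental hormone gene Prl2c2 were also up. Hand1, a regulator of trophoblast giant cells, had 0.524 FPKM in wild type, 43.9 and 43.8 in the monoallelic clones and 19.8 in CAST-/129-. Values of other regulators on the list, which did not pass the threshold, follow. Cdx2 had 0.0712 FPKM in wild type against 1.59 in CAST-/129-, Elf5 had 0.0274 and 0.117 FPKM, and Gata3 had 0.144 and 1.36 FPKM. Eomes had 3.89 and 13.1 FPKM.

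Epithelial and junction genes were up in 10 of 27 cases and down in 0, with a median of 1.03, and 4 of the 10 were the keratins named above. The others were Epcam, the claudins Cldn4, Cldn6 and Cldn7, the desmosome gene Dsp and the splicing regulator Esrp1, which had 0.396 and 17.0 FPKM. E-cadherin (Cdh1) had 109 and 92.6 FPKM. Of 22 primitive endoderm genes 4 were down, 1 was up and 17 passed neither threshold, with a median of -0.63. Gata6, which specifies that lineage, had 42.9, 2.94, 6.77 and 4.51 FPKM. The laminin gene Lama1 had 80.3, 24.9, 20.3 and 12.1 FPKM. Pdgfra and Srgn were down too, while Fst, which binds activin, was up. Gata4 had 17.4 and 3.95 FPKM and did not pass, and Sox17 had 4.73 and 4.95 FPKM. For Gata6 and Lama1 the wild type library was above all 3 deletion clones.

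Germ line genes had 5 of 23 down and 2 up. Dazl, an RNA-binding protein of germ cells, had 73.4, 19.4, 13.7 and 5.97 FPKM, and Stra8, the gatekeeper of meiosis, had 62.4, 12.6, 5.04 and 4.38 FPKM. The tubulin genes Tuba3a and Tuba3b, near-identical copies between which alignments may be split, had 32.5 and 42.6 FPKM in wild type and 1.59 and 0.580 FPKM in CAST-/129-. Hormad1 was the fifth that was down. The homeobox genes Rhox6 and Rhox9 were up, and Rhox6 had 3.19, 129, 135 and 74.5 FPKM. Genes of the 2-cell-like state had 1 of 14 up, Gm4340 with 10.1 and 45.6 FPKM, but 5 up with read counts or with the wild type library thinned to the depth of the other. The Zscan4 genes, near-identical copies, lay just below the threshold, Zscan4c with 5.75 and 22.5 FPKM and Zscan4d with 3.05 and 15.7 FPKM.

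**Figure D2:**
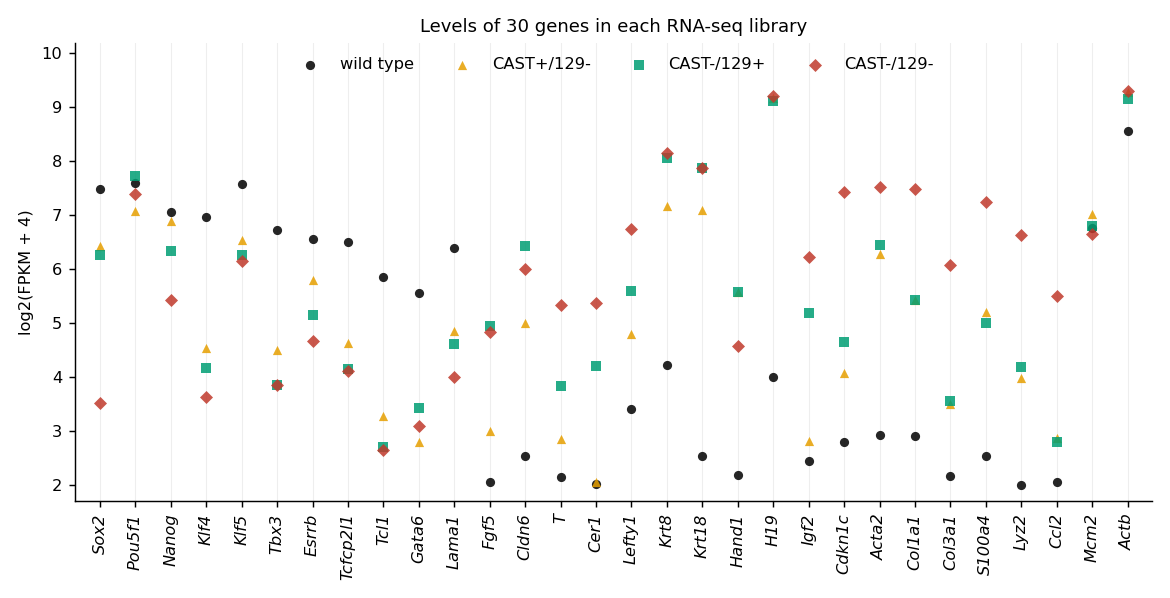
Levels of 30 genes as log2 of FPKM plus 4 (y axis) in the wild type, CAST+/129-, CAST-/129+ and CAST-/129- libraries, with 1 symbol a library. Sox2 and T are ordered by the deletion, while H19 and Krt18 are close together in the deletion clones and Col1a1, Lyz2 and Cdkn1c stand highest in CAST-/129-.

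Among the other large decreases, Npl, an enzyme of sialic acid breakdown, had 58.1 FPKM in wild type, 24.5 and 15.8 in the monoallelic clones and 1.83 in CAST-/129-. Dpp4, a membrane peptidase, had 33.9, 2.68, 5.54 and 1.0 FPKM. Cobl, an actin nucleator, had 41.4, 0.868, 0.811 and 2.70 FPKM. The former followed the number of deleted alleles, whereas Cobl was lowest in the monoallelic clones. Lrrc34 had 1112 alignments in wild type and 2 in CAST-/129-, or 0.766% of the wild type level with an interval of 0.0927% to 2.78%. Gm7325, the class II antigen gene H2-Eb1 and the peptide transporter Slc15a1 complete the 15 protein-coding genes with the largest decreases, at 84.5, 34.8 and 26 FPKM in wild type and 6.72, 1.44 and 1.04 FPKM in CAST-/129-.

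Enzymes of DNA methylation had 1 of 9 down, or 2 with read counts. Tet2, which oxidises methylcytosine, had 53.3, 22.1, 9.27 and 8.50 FPKM, and Tet1 had 109, 60.0, 45.4 and 34.9 FPKM, a log2 ratio of -1.54 that missed the threshold. Dnmt1 had 93.8 and 102 FPKM. Subunits and partners of Polycomb repressive complex 2, which writes H3K27 methylation, had 0 of 11 past the threshold and a median of -0.39, or -0.62 with read counts. The core subunit Suz12 had 87.7, 72.7, 64.2 and 45.5 FPKM and Ezh2 had 32.2, 33.4, 34.6 and 23.7 FPKM. Among 17 regulators of the Myc and Lin28 group Igf2bp2 was down, with 46.3 and 10.4 FPKM, and Myc had 20.7 and 31.2 FPKM.

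Genes of the amino acid response, which the factor ATF4 switches on when amino acids run short, had 4 of 26 down, 0 up and a median of -0.85. Pck2, a mitochondrial enzyme of gluconeogenesis, had 40.1, 9.87, 4.66 and 4.84 FPKM in wild type, CAST+/129-, CAST-/129+ and CAST-/129-. Chac1, which degrades glutathione, had 20.4, 1.96, 2.22 and 1.36 FPKM. The amino acid transporter Slc7a5 had 169, 76.2, 49.2 and 43.8 FPKM, and Trib3, a pseudokinase that ATF4 induces, had 36.8, 10.7, 10.5 and 7.83 FPKM. For these genes too the wild type library stood above all 3 deletion clones. Atf4 had 151 and 80.7 FPKM and Asns, the asparagine synthetase, had 121 and 66.3 FPKM, short of the threshold. ATF4 binds with C/EBP proteins to a site with the letters TGATGNAA, and the promoters of Chac1, Trib3 and Pck2 are shown because each holds it. These are the 200 bases before the annotated start of Chac1 (chr2:119176765-119176964, plus strand), Trib3 (chr2:152169769-152169968, minus strand) and Pck2 (chr14:56158903-56159102, plus strand) in mm9. Capitals mark the site, which reads on the opposite strand in all of them, at bases -180 to -173, -14 to -7 and -103 to -96.

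Chac1: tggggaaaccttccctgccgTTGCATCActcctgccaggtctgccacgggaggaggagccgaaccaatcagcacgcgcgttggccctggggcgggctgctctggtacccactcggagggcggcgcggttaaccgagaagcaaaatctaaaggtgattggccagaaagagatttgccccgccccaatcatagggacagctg

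Trib3: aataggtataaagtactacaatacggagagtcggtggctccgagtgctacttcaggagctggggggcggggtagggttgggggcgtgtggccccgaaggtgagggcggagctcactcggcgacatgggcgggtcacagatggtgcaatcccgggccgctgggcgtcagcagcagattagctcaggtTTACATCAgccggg

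Pck2: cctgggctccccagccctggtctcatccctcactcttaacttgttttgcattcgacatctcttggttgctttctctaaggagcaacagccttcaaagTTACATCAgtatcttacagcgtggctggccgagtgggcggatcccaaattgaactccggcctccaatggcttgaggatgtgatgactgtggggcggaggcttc

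TGATGNAA on either strand was found in 8 of the 161 windows of genes that were down (4.97%) and in 20 of the 258 windows of genes that were up (7.75%), 5 of which belong to repeat-like genes on chromosome 9. It was found in 2.44% of windows of expressed genes that were neither and in 4.08% of all windows.

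Markers of fibroblasts had the highest share of members up and the highest median of the 41 lists. The lists were chosen with earlier results of these data known, so that this ranking is a description only. Of 30 fibroblast markers 21 were up and 0 were down, with a median of 1.93, and all 30 had a higher FPKM in CAST-/129- than in wild type. Col1a1, a chain of type I collagen, had 3.48 FPKM in wild type, 39.0 and 38.9 in the monoallelic clones and 174 in CAST-/129-. Col3a1 had 0.489, 7.24, 7.75 and 63.8 FPKM. Bgn, a small proteoglycan, had 1.99, 27.8, 20.7 and 112 FPKM. In each of these the monoallelic clones lay between wild type and the biallelic clone and close to each other. Dcn and Lum, proteoglycans that define fibroblasts, had 0.0623 and 0 FPKM in wild type, between 0.159 and 1.74 FPKM in the monoallelic clones and 30.3 and 8.60 FPKM in CAST-/129-. The summed level of the 30 markers was 349 FPKM in wild type, 591 and 652 in the monoallelic clones, and 1865 in the biallelic clone. Since clones had been kept on MEF feeders, fibroblast RNA and RNA of the ESCs cannot be told apart in these libraries, and the part of fibroblasts in the increases was not tested. Some markers were higher without passing the threshold. Fn1, which ESCs also express, had 191 and 210 FPKM, Thy1 had 11.4 and 27.7 FPKM and Fap had 0 and 0.182 FPKM.

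Of 31 extracellular matrix genes 12 were up and 1, Lama1, was down. Their summed level was 1491 FPKM in wild type, 1290 and 1307 in the monoallelic clones and 2550 in the biallelic clone, where the sum of the fibroblast markers was highest too, and the part of the latter was not tested. Thbs1 had 2.27, 69.7, 33.7 and 128 FPKM, and Fbln2 had 1.08, 16, 8.62 and 68.4 FPKM. The inhibitor of matrix proteases Timp2 had 2.0, 14, 10.7 and 78.1 FPKM. The basement membrane collagens Col4a1 and Col4a2 had 106 and 68.9 FPKM in wild type and 171 and 124 FPKM in CAST-/129-, within the threshold. Integrins and matrix receptors had 1 of 22 up, the hyaluronan receptor Cd44. Among genes of the epithelial to mesenchymal transition Vim and S100a4 were up, while the regulators Snai1, with 10.8 and 10.1 FPKM, and Zeb1, with 6.55 and 3.88 FPKM, were not. Cd44, Vim and S100a4 are also on the list of fibroblast markers.

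Of 28 S100 and annexin genes, which encode calcium-binding proteins, 6 were up and 0 were down. S100a4 had 1.78, 32.7, 28.1 and 147 FPKM and S100a6 had 13, 97.9, 112 and 240 FPKM in wild type, CAST+/129-, CAST-/129+ and CAST-/129-. Anxa1, Anxa2 and Anxa3 were up with log2 ratios between 2.34 and 3.62, and S100a11 with 1.75. S100a4, like Acta2 and Tagln of the contractile genes, is also on the list of fibroblast markers. The median log2 ratios of the fibroblast markers were 0.47, 0.47 and 1.93 in CAST+/129-, CAST-/129+ and CAST-/129-, those of the S100 and annexin genes 0.16, 0.25 and 0.52, and those of the contractile genes 0.78, 0.75 and 0.94. The part of fibroblast RNA in these lists was not tested.

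Actin and contractile genes were up in 12 of 36 cases and down in 0, with a median of 0.94. The smooth muscle actin Acta2 had 3.57, 73.7, 82.8 and 181 FPKM and Tagln had 4.09, 70.0, 95.3 and 164 FPKM. Myl9, the regulatory light chain of smooth muscle myosin, had 1.52, 28.3, 25.6 and 70.5 FPKM. Cnn2 had 3.78, 48.8, 71.6 and 66.6 FPKM, so that it was no higher in the biallelic clone than in CAST-/129+. The cytoplasmic actins Actb and Actg1, which all cells use, had 376 and 192 FPKM in wild type and 629 and 299 FPKM in CAST-/129-. Serum response factor acts on such genes through the CArG box, and 4 promoters that hold it are shown. They are the 200 bases before the annotated start of Acta1 (chr8:126418652-126418851, minus strand), Myl9 (chr2:156600956-156601155, plus strand), Tagln (chr9:45744142-45744341, minus strand) and Cnn2 (chr10:79451129-79451328, plus strand) in mm9, with the CArG box in capitals.

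Acta1: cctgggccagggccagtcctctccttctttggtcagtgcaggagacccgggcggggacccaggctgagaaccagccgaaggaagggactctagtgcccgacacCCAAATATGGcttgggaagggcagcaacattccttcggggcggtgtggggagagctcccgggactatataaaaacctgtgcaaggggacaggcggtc

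Myl9: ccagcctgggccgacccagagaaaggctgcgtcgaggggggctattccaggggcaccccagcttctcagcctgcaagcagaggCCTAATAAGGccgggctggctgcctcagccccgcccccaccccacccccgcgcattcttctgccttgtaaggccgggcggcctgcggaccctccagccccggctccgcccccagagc

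Tagln: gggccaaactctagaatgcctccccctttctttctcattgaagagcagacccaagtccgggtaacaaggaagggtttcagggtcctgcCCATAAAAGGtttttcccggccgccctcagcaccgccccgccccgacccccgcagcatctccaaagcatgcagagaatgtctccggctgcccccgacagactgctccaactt

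Cnn2: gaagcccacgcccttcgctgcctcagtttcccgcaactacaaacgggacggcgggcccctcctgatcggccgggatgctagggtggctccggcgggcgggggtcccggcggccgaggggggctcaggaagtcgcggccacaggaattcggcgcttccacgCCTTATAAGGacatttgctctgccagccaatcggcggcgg

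A CArG box lay in 6 of the 258 windows of genes that were up (2.33%), those of Acta1, Cnn2, Fbn1, Fhl2, Myl9 and Tagln, and in 0 of the 161 windows of genes that were down. The share was 1.20% for expressed genes that were neither and 1.46% for all genes. Genes that respond to Yap and Tead, which sense the cytoskeleton, had 3 of 20 up, Ctgf, Axl and Ccdc80. Ctgf had 8.31, 81.4, 23.6 and 37.9 FPKM.

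Genes of macrophages were up in 5 of 20 cases and down in 1, or in 3 and 0 with read counts. Lyz2, the lysozyme of myeloid cells, had 0 alignments in wild type, 191 and 112 in the monoallelic clones and 731 in CAST-/129-. Its level of 95.5 FPKM in CAST-/129- was 1038-fold above the level that 3 alignments would give in wild type, a ratio without an interval. Lyz1, Tyrobp, Emr1 and Ctss were up too, with 13.3, 8.51, 8.51 and 12.9 FPKM in CAST-/129- and at most 0.178 FPKM in wild type. The receptor Csf1r had 1 alignment in wild type and 131 in CAST-/129-, a level of 4.30 FPKM. In wild type 8 of the 20 markers were at 0, and in CAST-/129- none of them was. The summed level of the list was 50.9, 34.6, 42.9 and 196 FPKM in the 4 libraries. The wild type sum came mostly from Laptm5, which was down with 35.1 and 8.65 FPKM, and Cd68 with 11.7 and 9.14 FPKM. What part macrophage RNA had in the increases was not tested. Of 12 endothelial markers 1 was down, Pecam1, which ESCs express, and 0 were up.

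Chemokine and cytokine genes had 4 of 24 up. Ccl2 and Ccl7, which draw in monocytes, had 0.141 and 0.301 FPKM in wild type, 3.24 and 2.71 in CAST+/129-, 2.90 and 7.01 in CAST-/129+ and 41.4 and 56.5 in CAST-/129-. The macrophage growth factor Csf1 had 0.612 and 25.7 FPKM, and Tnfrsf12a had 2.76 and 31.9 FPKM. The fibroblast and macrophage markers given above were higher in the same library, and their part in these values was not tested. Interferon response and antigen presentation genes had 2 of 23 up, B2m with 46.7 and 162 FPKM and Bst2, and 1 down, Oas1a with 23.1 and 2.06 FPKM.

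Lists of growth and metabolism differed from each other. Replication and mitosis genes had 0 of 30 past the threshold and a median of 0.01, which turned to -0.175 with read counts and -0.13 with the thinned wild type library, with Mcm2 at 104 and 96.7 FPKM and Mki67 at 55.3 and 54.3 FPKM. Among 25 p53 targets, cyclins and CDK inhibitors 5 were up, all of them cyclins or CDK inhibitors. Cdkn1c (p57) had 2.92, 12.8, 20.9 and 168 FPKM, 57.7-fold higher (48.6 to 69) in CAST-/129- than in wild type, and Ccnd2 had 1.28, 6.88, 5.50 and 42.1 FPKM. Both were far above the monoallelic clones. The fibroblast markers were also highest in this library, with the medians given above, and their part in the values of this list was not tested. The tumour suppressor genes Cdkn2a and Cdkn2b and the cyclin Ccnd1 were the others, while Cdkn1a (p21) had 49.1 and 131 FPKM and did not pass. Glycolysis and hypoxia genes had 3 of 28 up, Tpi1, Bnip3 and the lactate exporter Slc16a3, and 1 down, Vegfa with 34.5 and 5.51 FPKM. Ldha had 92.4, 172, 236 and 221 FPKM. No gene passed the threshold among 19 of cholesterol synthesis, 24 of lysosomes and 23 of oxidative stress, with medians of -0.26, 0.22 and 0.05.

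Imprinted genes had 9 of 38 up and 0 down. H19, a noncoding RNA from the maternal allele, had 11.9 FPKM in wild type, 571 and 554 in the monoallelic clones and 589 in CAST-/129-, with a log2 ratio of 5.22. Its paternal neighbour Igf2, a growth factor, had 1.44, 3.0, 32.4 and 71.0 FPKM. The 2 genes of this locus therefore differed, with H19 at one level in all 3 deletion clones and Igf2 near wild type in CAST+/129-. Cdkn1c, Phlda2 and Ascl2, which lie in the neighbouring imprinted cluster on chromosome 7, were up, and so were Peg3, Peg10, Nnat and Dcn, the last of which is also on the list of fibroblast markers. The part of fibroblast RNA in this list was not tested. Peg10 had 94.2, 391, 438 and 611 FPKM. Meg3, with 16.7 and 17.1 FPKM, Igf2r, with 40.1 and 39.5 FPKM, and Slc38a4, with 94.3 and 93.9 FPKM, were near a ratio of 1. Alleles were not told apart here.

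**Figure D3:**
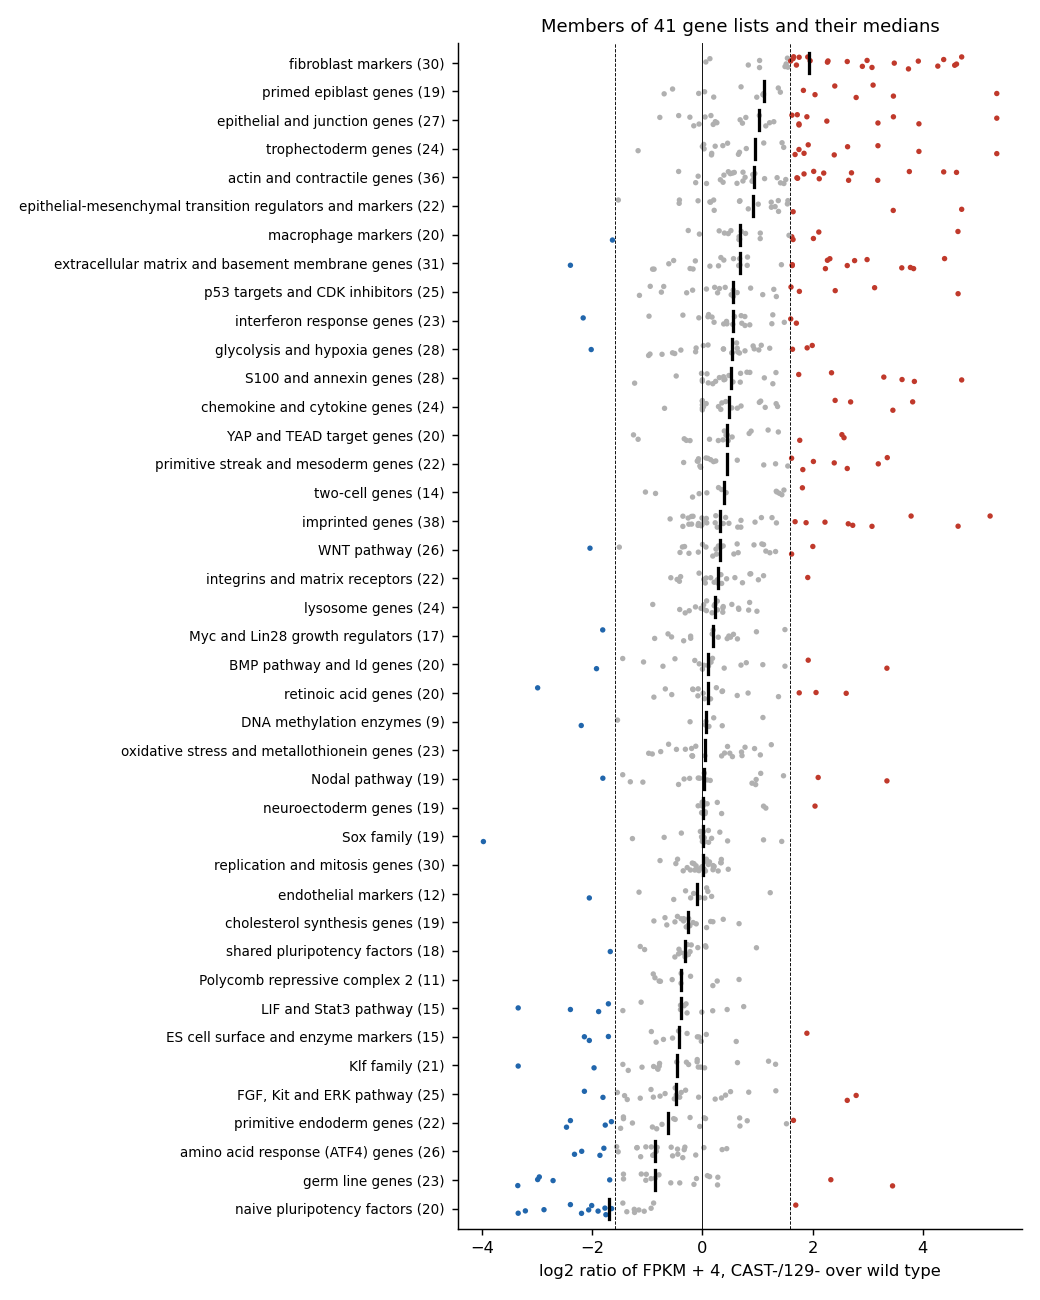
Log2 ratios of FPKM plus 4, CAST-/129- over wild type (x axis), of the members of 41 gene lists (y axis, number counted in parentheses), with red points up and blue points down at least 3-fold, grey points neither and black bars the medians. Lists are ordered by median, from -1.70 for naive pluripotency factors to 1.93 for fibroblast markers.

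ChIP-seq of wild type F123 cells, which the comparison did not use, gave the state of these genes before the deletion. H3K4me3, a mark of active promoters, was counted within 1 kb of the annotated start and given as fold over the genome mean. Its median was 4.64 at the 240 expressed genes that were up, 10.03 at the 158 that were down and lie on the autosomes or X, and 18.5 at the 9324 that were neither. H3K27ac had medians of 1.67, 10.04 and 9.21. Most genes that were up are low in wild type cells, where 166 of the 240 were under 5 FPKM. Among expressed genes under 5 FPKM in wild type, H3K4me3 was at 3.9 for 166 genes that were up and 9.85 for 303 that were neither, and H3K27ac was at 0.837 and 3.35. These sets differ in level, with a median of 1.19 FPKM in wild type for the former and 3.9 FPKM for the latter, because genes that did not change enter a mean of at least 5 FPKM only near that limit, so that the marks cannot be compared at a matched level. Of the 240 genes that were up, 93 (38.8%) had H3K4me3 under 3-fold, against 15.7% of those that were neither. The full sets differ in wild type level as well, with medians of 2.09 and 18.7 FPKM. These shares are therefore not at a matched level either.

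Distance to long stretches of H3K27ac was also taken, as a description without a test. Bins of 1 kb with over 5 times the genome mean were merged across gaps of up to 2 kb, which gave 1874 stretches of at least 10 kb. Of the genes that were down, 69 of 158 (43.7%) started within 20 kb of such a stretch, against 21 of 240 (8.75%) of those that were up and 1580 of 9324 (16.9%) of the rest. With at least 20 FPKM in wild type the shares were 53 of 112 (47.3%) for genes that were down and 967 of 4376 (22.1%) for those that were neither. Under 5 FPKM in wild type, 7 of 166 genes that were up (4.22%) and 25 of 303 that were neither (8.25%) lay that close, so that genes of low level had low shares in both sets. Wild type medians of these sets were 1.19 and 3.9 FPKM, so that their shares cannot be compared at a matched level. The stretch past Sox2 was 28 kb long with a mean of 35.8-fold, and 85 of the 1874 held more alignments. At the starts of highly expressed genes the H3K27ac median was 13.4 both for genes that were down and for those that were neither, whereas H3K4me3 was lower at genes that were down, 12 against 21.7.

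**Figure D4:**
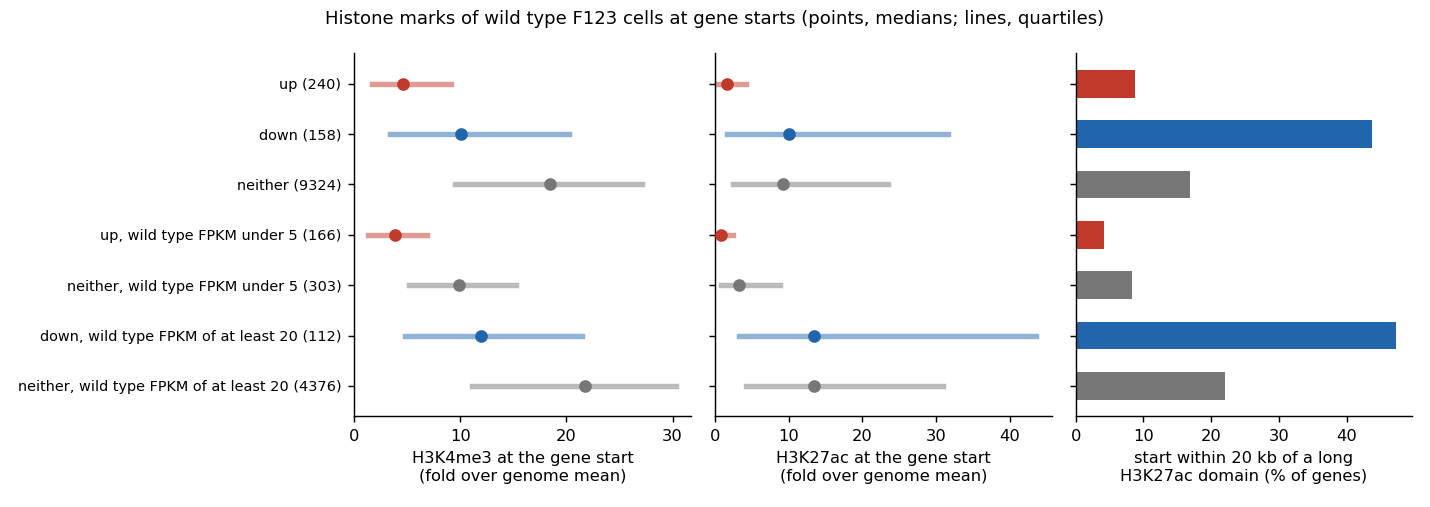
H3K4me3 (left) and H3K27ac (middle) in wild type F123 cells within 1 kb of gene starts, as fold over the genome mean (x axes), and the percent of genes that start within 20 kb of a long H3K27ac stretch (right), for genes up, down or neither, with their number in parentheses. Points are medians and lines run from the lower to the upper quartile. The genes that were down have the longest bars at right, 43.7% in all and 47.3% at 20 FPKM or more.

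CpG dinucleotides were counted in the 300 bases around the start. The median was 9 for genes that were up, 15 for those that were down, 20 for expressed genes that were neither and 7 for all genes counted. For expressed genes under 5 FPKM in wild type that were neither it was 17. As for the histone marks, this set differs in wild type level from the genes that were up. CpG counts can therefore not be compared at a matched level. A TATA box (TATAAA, either strand) lay in 47 of 258 windows of genes that were up (18.2%), in 13% of those that were down, in 8.28% of those that were neither and in 15% of all. The AP-1 site TGANTCA lay in 8.53%, 9.32%, 4.40% and 7.34% in the same order. The octamer ATGCAAAT lay in 2.71%, 2.48%, 1.21% and 2.24%. The Tead site CATTCCA lay in 4.65%, 3.73%, 2.84% and 4.05%, and the GC box GGGCGG in 46.1%, 56.5%, 60.1% and 34.9%.

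By chromosome, chromosome 8 stood apart from the other autosomes. Those had medians between -0.12 and -0.01, and chromosome 3, which carries Sox2, had -0.07 with 12 of 446 genes up and 11 down. The 14 mitochondrial genes counted had a median of 0.36 and the 5 genes of chromosome Y one of -0.28. On chromosome 8 the median of 558 genes was -0.29. The 68 genes of its first 20 Mb, a limit chosen after the values were seen, had a median of 0.83, and the other 490 had -0.35. In CAST-/129+ the median of chromosome 8 was -0.36, with -0.35 in the first 20 Mb, and in CAST+/129- it was 0.06. The raised start of the chromosome was thus seen in the biallelic library, while the lower rest was shared with CAST-/129+. DNA copy number was not analysed here, and its part in these shifts was not tested. On this chromosome 12 genes were up and 16 down, and of the genes named here RNaseP_nuc, Col4a1 and Col4a2 lie in its first 20 Mb, and Sall1, Zfp42, Slc7a5, Sfrp1, Bst2, Acta1, Klf2 and Cdh1 in the rest.

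**Figure D5:**
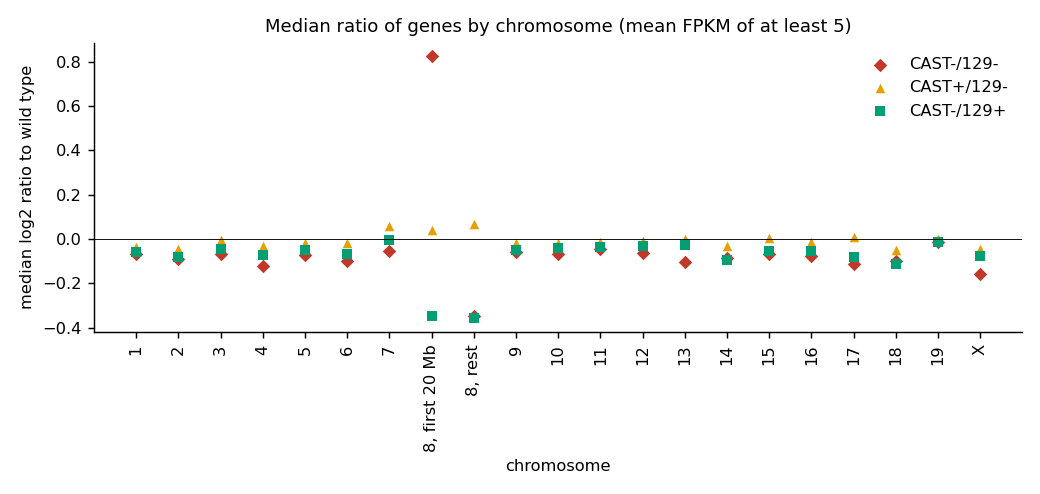
Median log2 ratio to wild type (y axis) of genes with a mean of at least 5 FPKM on each chromosome (x axis), for the CAST-/129-, CAST+/129- and CAST-/129+ libraries, with chromosome 8 split at 20 Mb. The first 20 Mb of chromosome 8 stand at 0.83 in CAST-/129-, and the rest at -0.35.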

How the data were processed

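RNA-seq of 4 F123 clones and ChIP-seq of H3K4me3 and H3K27ac in wild type F123 cells were used, while the H3K27ac library of J1 cells was not. The authors deposited aligned positions, each with a read count, with RNA-seq reads mapped to mm9 by Novoalign and USeq per the study's methods, and Bowtie also named in the labels. Each deposited position was counted once, whatever its read count, and assigned by its midpoint to exonic bases unique to 1 gene and strand of GENCODE M1, for genes with at least 200 such bases. FPKM used the alignments on these genes as library size. With 1 library a side no test was made, the threshold was 3-fold on FPKM plus 4, and exact Poisson or binomial 95% intervals cover counting error only. Positions counted once lose copies of abundant transcripts, more in the deeper library. The members and the 41 gene lists were chosen with earlier results of these data known. Named genes were Sox2, the 15 protein-coding and 5 other genes with the largest ratios in each direction, and list members. Promoter windows ran from 250 bases before to 50 after the GENCODE start in mm9, and motifs were searched on both strands. The alternatives were read counts, a thinned wild type library, other library sizes, both strands, other pseudo-values and thresholds, a filter on low values and protein-coding genes only. Results for some genes are not reported here. The code was tested on simulated data. Sequences were read with samtools 1.23.1 and pysam 0.24.0, figures drawn with matplotlib 3.10.9, and values computed with scipy 1.17.1, pandas 2.3.3 and numpy 2.4.6 in Python 3.11.15.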

Additional observations from a re-analysis of the deposited data

Results flagged for a closer look

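The gene 2410004A20Rik moved one way in the biallelic clone and the other way in both monoallelic clones. It had 1882 alignments in wild type, 2839 and 981 in CAST+/129- and CAST-/129+, and 48 in CAST-/129-. The levels were 40.0 FPKM in wild type, 120.3 and 85.5 FPKM in the monoallelic clones and 4.35 FPKM in the biallelic clone. The log2 ratio to wild type was -2.40 in CAST-/129-, 1.5 in CAST+/129- and 1.02 in CAST-/129+. The clones share the wild type library and have no replicates, so the difference between them was not tested.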

How the results depend on the processing

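The counts of 258 genes up and 161 down both moved by over 1.5 times under 4 settings, and the latter under 1 more. With a pseudo-value of 1 there were 701 up and 565 down, and with 10 there were 120 up and 50 down. At 2-fold 630 were up and 605 down, and at 5-fold 103 were up and 29 down. The threshold settings move the limit itself. With library sizes taken from all alignments 106 were down. Of all distinct alignments, 73.8% lay on genes in wild type and 77.2% in CAST-/129-. Every FPKM is therefore smaller under that setting, while the pseudo-value stays at 4. That setting left 209 up, and the others gave 249 to 291 up and 125 to 161 down, and Sox2 kept between 3.49% and 4.43% of its wild type level. Of the 419 genes called, 0 changed direction, and 336 stayed past 3-fold with read counts, 377 with the thinned wild type library, 315 with all alignments and 402 with both strands. Near the threshold, Prdm14, Sall1, Lifr, Pdgfra, Laptm5 and Wnt3 were not past 3-fold with read counts, with the thinned library or with all alignments, Trib3 with read counts or the thinned library, Tyrobp, Emr1, Lum, Lhx1, Bnip3 and Srgn with read counts or all alignments, Vim with the thinned library, Klf15 and Plac1 with read counts, Wnt3, Bnip3 and Ccnd1 with both strands, and Krt7, Ascl2, Cldn7, Fst, Hormad1, Bst2 and, at -1.56, Nanog with all alignments. Macrophage markers had 3 up, not 5, with read counts or all alignments, primitive endoderm genes 2 down, not 4, and trophectoderm genes 7 up, not 9, with all alignments, and primitive streak genes 5 up, not 7, with read counts or all alignments. List medians depend on the pseudo-value: with 1 and 10 they were 1.14 and 0.20 for primitive streak genes, 2.02 and 0.79 for primed epiblast genes, 3.20 and 1.38 for fibroblast markers, 1.79 and 0.32 for macrophage markers, and -1.76 and -1.35 for naive factors. With read counts or the thinned library, the medians of most autosomes moved to near 0, that of chromosome 3 to 0.02 with read counts, while chromosome 8 stayed at -0.24 and -0.25. The median of the Nodal pathway moved from 0.04 to 0.28 and 0.22, and that of the Klf family from -0.46 to -0.27 and -0.29. The wild type library held over 4 times the alignments on genes of the biallelic one, which limits low genes most in the latter. No paired analysis was possible because each group has 1 library.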

Other observations

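Some repeat-like predicted genes were raised in all 3 deletion clones. No list of such genes was set up, so that these are single genes and the share raised was not taken. On chromosome 2, Gm10800 had 74.2 FPKM in wild type, 1173 and 2155 FPKM in the monoallelic clones and 1064 FPKM in CAST-/129-, and its neighbour Gm10801 had 14.4, 353, 640 and 307 FPKM in that order. On chromosome 9, Gm16869 had 14.2, 323, 437 and 202 FPKM, and Gm10718 had 20.8, 277, 497 and 235 FPKM. All were higher in both monoallelic clones than in the biallelic clone. Alignments may be split between near-identical copies, so that single genes are uncertain.

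Among gene types other than protein-coding, those that were up included Gm15564 and RNaseP_nuc, with 173 and 13 FPKM in wild type and 684 and 61.5 FPKM in CAST-/129-, and Serpina3h with 0.533 and 17.7 FPKM. Among those that were down, Gm13223, Ak3l2-ps, Gm5829, Gm13036 and Gm13227 had log2 ratios between -2.35 and -1.93.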
